A study of Homo sapiens with 9 samples.

Results

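NOTCH3, a receptor of the Notch pathway, JAG1, a ligand of Notch receptors, and HEY1, a gene that activated Notch receptors switch on, were followed across 3 kinds of transfection in BT-549, a human breast cancer cell line of the triple-negative class, which lacks both hormone receptors and extra HER2. The genes were taken by their symbol in the array platform's annotation, and the feature (a set of probes read together) with the highest mean over all arrays stands for each gene. Each of the 3 genes had 1 such feature, among 14884 genes with a symbol. The cells received a synthetic mimic of mature miR-150-5p, an unrelated negative control small RNA, or the lipid transfection reagent without RNA, called mock, and there were 3 samples in each group. Both small RNAs were used at 50 nM, the medium was changed during the incubation, and RNA was taken 72 h after transfection. All 3 groups are the same cell line, grown in the same medium and exposed to the same lipid reagent, so that mock is a control for the lipid and not an untouched culture. Whether the 3 samples of each group came from separate cultures is not in the labels, and the spread behind the p-values below may therefore be technical.

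In Notch signalling, a ligand such as JAG1 on one cell binds a receptor such as NOTCH3 on its neighbour, the receptor is cut by ADAM proteases and then by gamma-secretase, and the freed intracellular part enters the nucleus. There it joins the DNA-binding protein RBPJ and Mastermind co-activators and switches on genes of the HES and HEY families, which encode transcriptional repressors. The pathway is studied in breast cancer for its part in self-renewal and invasion, and NOTCH3 has been reported as a target of miR-150.

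The quantity given throughout is the log2 signal of a feature, so that a difference of 1 is a 2-fold difference, and signals of different genes cannot be compared as amounts of RNA because their probes differ. The array medians over all features lay between 2.43 and 2.48, and Pearson's r across genes, which are not independent replicates, was 0.988 to 0.994 within groups and 0.983 to 0.991 between groups. The mesenchymal markers VIM, CD44, AXL and FN1, 4 of 6 on their list measured, averaged 7.30 to 8.76, while ESR1, PGR and EPCAM were at 2.13, 1.78 and 1.88. The other measured luminal epithelial markers were higher, with KRT18 at 7.54, GATA3 at 5.69 and KRT8 at 3.83. Of the endothelial and immune markers, PECAM1, VWF and CD14 were measured, and their means were 2.19, 2.37 and 2.23. No marker passed the test in any comparison. In RNA from whole cultures, fewer cells of a type and less RNA per cell cannot be told apart.

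The sequences just upstream of the starts of JAG1 and NOTCH3 are shown because JAG1 moved between the groups and NOTCH3 gave no detectable difference. They are 250 bases before each start, from RefSeq on GRCh38.p14, read 5′ to 3′ on the minus strand, at chr20:10674000-10674249 for JAG1 and chr19:15200996-15201245 for NOTCH3. Capitals mark the GC box GGGCGG or its reverse complement CCGCCC.
JAG1: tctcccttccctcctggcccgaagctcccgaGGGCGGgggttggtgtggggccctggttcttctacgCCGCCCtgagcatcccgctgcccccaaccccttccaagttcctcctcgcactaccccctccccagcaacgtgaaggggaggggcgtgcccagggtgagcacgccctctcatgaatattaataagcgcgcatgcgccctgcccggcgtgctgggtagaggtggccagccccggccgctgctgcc
NOTCH3: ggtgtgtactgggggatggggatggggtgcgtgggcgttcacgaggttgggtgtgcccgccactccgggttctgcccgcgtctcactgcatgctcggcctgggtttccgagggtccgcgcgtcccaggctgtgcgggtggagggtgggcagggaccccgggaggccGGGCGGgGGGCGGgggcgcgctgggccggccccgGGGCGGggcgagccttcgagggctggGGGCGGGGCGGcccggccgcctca
The G and C content was 68.4% for JAG1 and 78% for NOTCH3. The upstream stretch of JAG1 held 2 GC boxes, and that of NOTCH3 held 5, of which the last pair before the start overlap. Over a window from 250 bases before to 50 after the start, 44.6% of 27305 promoters held a GC box on either strand. The RBPJ core TGGGAA, on either strand, was not among the letters of either window and was in 24.3% of promoters. The E-box CACGTG was also in neither and was in 7.43% of promoters. The HES and HEY type site CACGCG, on either strand, occurred 1 time in the JAG1 window, after the start, 0 times in that of NOTCH3, and in 11.4% of promoters. These matches describe letters only, and their part in the differences between groups was not tested. The sequence upstream of HEY1, which also differed between mimic and mock, is not shown.

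The receptor NOTCH3 showed no difference between the groups that exceeded the spread of its arrays. NOTCH3 read 5.58, 5.99 and 5.80 on mimic arrays 1 to 3, 5.59, 5.36 and 6.13 on negative control arrays, and 5.49, 5.53 and 6.0 on mock arrays. The 3 groups overlapped in every pairing, and the negative control alone held both the lowest and the highest of the 9 values. The mean was 5.79 ± 0.21 in mimic, 5.69 ± 0.39 in negative control and 5.67 ± 0.28 in mock (SD, n = 3 each). The log2 difference was 0.10 ± 0.21 (SE) for mimic against negative control, with a 95% interval of -0.37 to 0.56 (limma across all genes, adjusted p = 0.88). Against mock the mimic difference was 0.12 ± 0.21, with an interval of -0.35 to 0.58 (limma, adjusted p = 0.85). The negative control differed from mock by 0.02 ± 0.21, with an interval of -0.45 to 0.48 (limma, adjusted p = 0.99). In the mimic against the negative control, a NOTCH3 fall of more than 0.37 or a rise of more than 0.56 lay outside the interval. Falls or rises within those bounds could not be told apart from no difference with 3 arrays a group.

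The ligand JAG1 was lower in the negative control than in either other group, and its mimic and mock arrays overlapped. JAG1 read 4.88, 5.27 and 5.06 on mimic arrays 1 to 3, 4.17, 4.58 and 4.15 on negative control arrays, and 5.07, 4.98 and 5.32 on mock arrays. All 3 negative control arrays lay below every mimic and every mock array, a separation found for 18.6% of all genes between mimic and negative control and for 12% between negative control and mock. The mean was 5.07 ± 0.19 in mimic, 4.30 ± 0.24 in negative control and 5.12 ± 0.18 in mock (SD, n = 3 each).

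**Figure D1:**
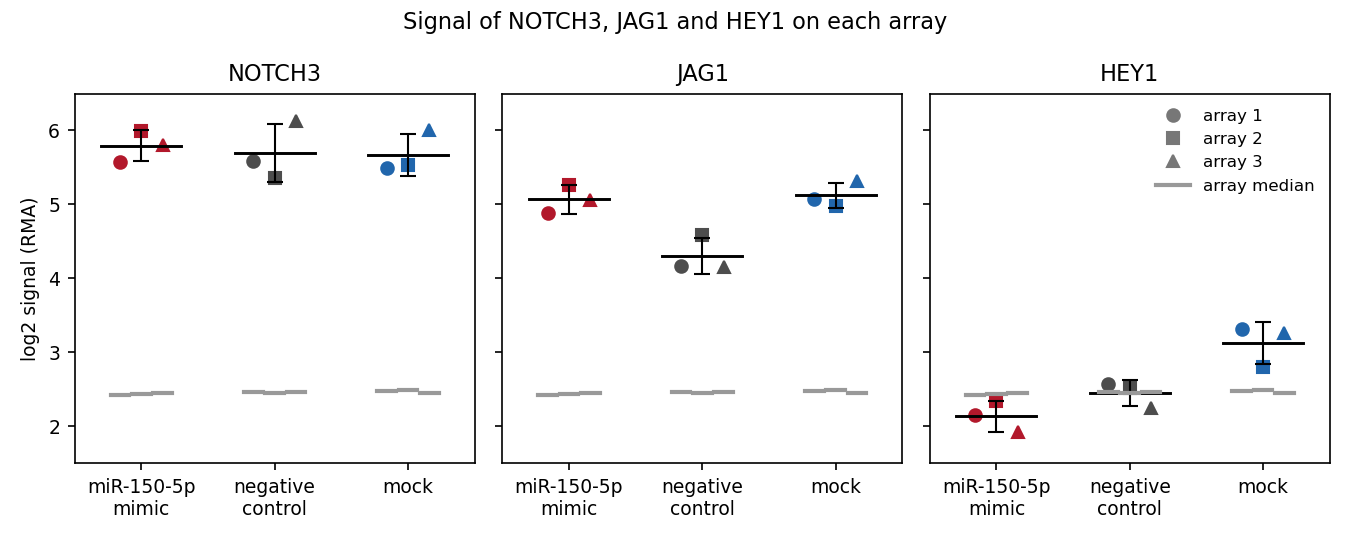
Log2 signal of NOTCH3, JAG1 and HEY1 on each of the 9 arrays, with symbols for array number, black lines for the group mean and bars for 1 SD (n = 3), and grey lines for each array's median over all features. The negative control arrays of JAG1 sit at 4.15 to 4.58, below all others, while HEY1 lies below the array medians in the mimic, around them in the negative control and above them in mock.

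Against the negative control, JAG1 rose in the mimic by 0.77 ± 0.15 on the log2 scale, 1.70-fold, with a 95% interval of 0.43 to 1.10 (limma, adjusted p = 0.026). In that comparison 3.18% of all genes passed, 1.76% upward, and JAG1 ranked at 96 of 14884 by size of rise. The difference stayed between 0.67 and 0.91 over the fits that each left out 1 array, but the adjusted p passed 0.05 without mimic 2 (0.093), mimic 3 (0.083), mock 1 (0.0502), negative control 1 (0.093) or negative control 3 (0.094). The call was also missed with only the 6 arrays of the pair of groups in the fit (adjusted p = 0.069).

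Against mock, JAG1 fell in the negative control by 0.82 on the log2 scale (SE 0.15), 1.76-fold lower, with a 95% interval of -1.15 to -0.49 (limma, adjusted p = 0.048). There 0.645% of all genes passed, 0.477% downward, and JAG1 ranked at 51 by size of fall. The replicate numbers may pair negative control with mock arrays. With the number as a block in the limma fit of all 9 arrays, the difference was the same with adjusted p = 0.081. That block also tied mimic arrays by number, so it was not a test of the negative control and mock pairing alone. Leaving out any array except negative control 2 also took the adjusted p above 0.05, to at most 0.16 without mock 1, with the difference between -0.96 and -0.72. The adjusted p was 0.052 with a mean-variance trend and robust variance, and 0.16 with only the 6 arrays.

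Between mimic and mock, JAG1 differed by -0.05 ± 0.15, with a 95% interval of -0.39 to 0.28 (limma, adjusted p = 0.91). The comparisons of JAG1 against the negative control and of the negative control against mock share the same 3 negative control arrays, so that their opposite signs are not independent. Of the smooth muscle and pericyte markers, 1 of 3 was measured, RGS5, which read 5.56 to 5.67 in mimic, 4.86 to 5.25 in negative control and 5.12 to 5.57 in mock. It passed in no comparison, and its part in the JAG1 result was not tested.

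The target gene HEY1 was highest in mock and lowest in the mimic. HEY1 read 2.15, 2.34 and 1.92 on mimic arrays 1 to 3, 2.57, 2.52 and 2.24 on negative control arrays, and 3.32, 2.80 and 3.26 on mock arrays. Every mock array lay above every mimic array, a separation found for 20.2% of all genes between those groups. Every mock array also lay above every negative control array, a separation found for 12% of all genes. The mimic and negative control arrays overlapped. The mean was 2.14 ± 0.21 in mimic, 2.44 ± 0.18 in negative control and 3.13 ± 0.28 in mock (SD, n = 3 each). HEY1 is a dim feature, since its mean lay below the array medians in the mimic, among them in the negative control and above them in mock, the medians being 2.43 to 2.48. No call of presence above background accompanied the values used here.

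HEY1 fell in the mimic against mock by 0.99 on the log2 scale (SE 0.16), with a 95% interval of -1.35 to -0.63 (limma, adjusted p = 0.012). In that comparison 3.9% of all genes passed, 1.62% downward. Because the mimic signal of HEY1 is not shown to be above background, no fold is given, and these differences describe the signal and may understate that of the RNA. The adjusted p was 0.051 without mimic 1 and 0.053 without mock 1, with the difference between -1.15 and -0.88 over the arrays left out. The neighbouring steps of the order did not pass. The negative control differed from mock by -0.68 ± 0.16, with an interval of -1.04 to -0.32 (limma, adjusted p = 0.12), although the arrays did not overlap. Without mock 2 that difference was -0.84 (adjusted p = 0.044). The mimic differed from the negative control by -0.31 ± 0.16, with an interval of -0.67 to 0.05 (limma, adjusted p = 0.40).

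**Figure D2:**
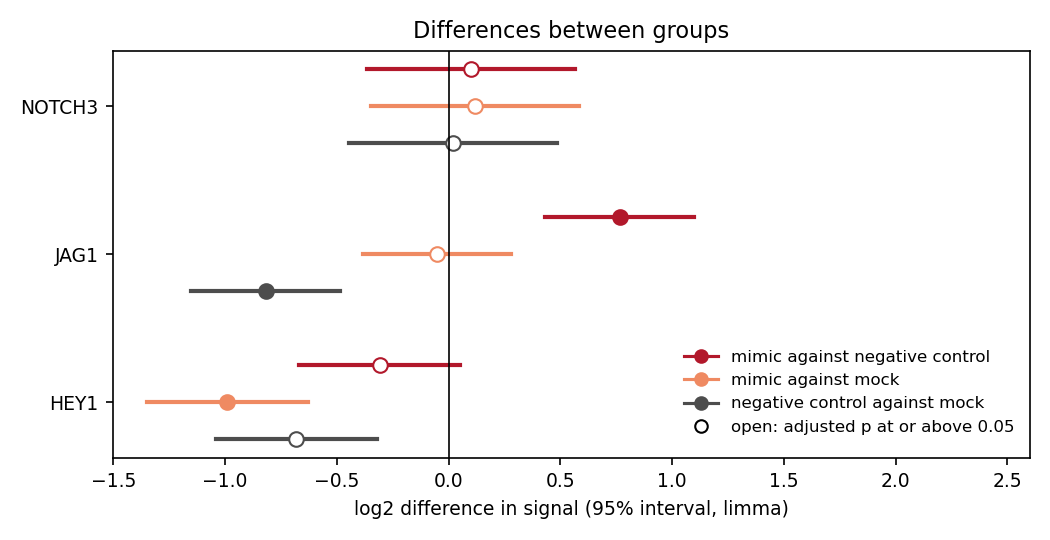
Log2 difference in signal between groups for NOTCH3, JAG1 and HEY1, as points with 95% intervals from limma, n = 3 arrays a group. Filled points passed an adjusted p under 0.05, as JAG1 did at 0.77 and -0.82 and HEY1 at -0.99, and the intervals of NOTCH3 all span 0.

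The 3 genes did not move as a set. The group with the lowest mean was the negative control for JAG1, the mimic for HEY1 and mock for NOTCH3, whose groups overlapped. After the group means were taken out, Pearson's r over the 9 arrays was 0.08 between NOTCH3 and JAG1, -0.08 between NOTCH3 and HEY1, and 0.49 between JAG1 and HEY1, given as a description of arrays that share their normalization.

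Beyond the 3 genes, 88 genes of the pathway were listed by role, and 74 were measured. Against the negative control 2 of the 74 rose and 3 fell in the mimic (6.76%, against 3.18% of all genes, of which 1.76% rose and 1.42% fell), with a median of -0.014, against -0.0044 over all genes. Against mock 1 rose and 4 fell (6.76%, against 3.9% of all genes, of which 2.28% rose and 1.62% fell), with a median of -0.016, against 0.00034 over all genes. In the negative control against mock 0 rose and 1 fell (1.35%, against 0.645%), the gene being JAG1. The 5 called in each mimic comparison include members of the trio, JAG1 against the negative control and HEY1 against mock. Without the trio, 5.63% of 71 genes passed in each mimic comparison and 0% in negative control against mock. The lists were chosen with earlier results of these data known, so these shares are not independent of those results. In all, 67 of the 74 passed in no comparison by limma.

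None of the 4 receptor genes passed in any comparison, by limma at an adjusted p under 0.05 or at an unadjusted p under 0.05. Over all genes the share at an unadjusted p under 0.05 was 15.98% in mimic against negative control, 17.53% in mimic against mock and 11.04% in negative control against mock, against which the counts of that kind below are to be read. NOTCH2 differed by -0.02 ± 0.17 (adjusted p = 0.97) and NOTCH1 by -0.19 ± 0.18 (adjusted p = 0.67) in the mimic against the negative control. Among the 5 genes listed as canonical ligands, JAG1 alone passed. JAG2, the other Jagged ligand, differed by 0.11 ± 0.09 (adjusted p = 0.63) and DLL3 by 0.05 ± 0.10 (adjusted p = 0.85) in that comparison. Of 8 measured non-canonical ligands, 0 passed by limma in any comparison, with 1, 2 and 1 at an unadjusted p under 0.05 in mimic against negative control, mimic against mock, and negative control against mock. MFAP2, a microfibril protein, came nearest, at -0.45 ± 0.11 in the mimic against the negative control (adjusted p = 0.060).

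The enzymes that add sugars to the Notch receptor's extracellular repeats held the largest changes outside the ligands and targets. Of 9 measured, 1 rose and 1 fell in the mimic against each control, and 0 passed in the negative control against mock (limma, 1 at an unadjusted p under 0.05). These were GXYLT1 and GXYLT2, both of which add xylose to the glucose on those repeats, and they moved in opposite directions. GXYLT2 read 7.13, 7.51 and 7.29 on mimic arrays, 9.04, 8.31 and 8.97 on negative control arrays, and 8.50, 8.17 and 8.61 on mock arrays. Every mimic array was below every control array, a separation found for 18.6% of all genes against the negative control and 20.2% against mock.

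GXYLT2 fell by 1.47 on the log2 scale (SE 0.20) against the negative control (limma, adjusted p = 0.0053) and by 1.12 against mock (SE 0.20, adjusted p = 0.017). The call against mock was missed without mimic 1, mimic 3 or mock 1, with adjusted p up to 0.076. GXYLT1 read 5.40, 5.19 and 5.11 on mimic arrays, 4.71, 4.70 and 4.85 on negative control arrays, and 4.27, 4.03 and 4.32 on mock arrays. Here no groups overlapped, with the mimic highest and mock lowest. Groups were separate for 18.6% of all genes in mimic against negative control and 20.2% in mimic against mock. In negative control against mock the share was 12%.

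GXYLT1 rose by 1.02 ± 0.11 in the mimic against mock (limma, adjusted p = 0.0016), and by 0.48 ± 0.11 against the negative control (adjusted p = 0.048). The call against the negative control was missed when any array except mock 2 was left out, with adjusted p up to 0.16, and in 4 of 8 other settings. The negative control was 0.54 ± 0.11 above mock, at an adjusted p of 0.066. POFUT1, which adds the fucose needed for ligand binding, differed by 0.23 ± 0.13 (adjusted p = 0.45) and EOGT by 0.22 ± 0.11 (adjusted p = 0.39) in the mimic against the negative control.

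**Figure D3:**
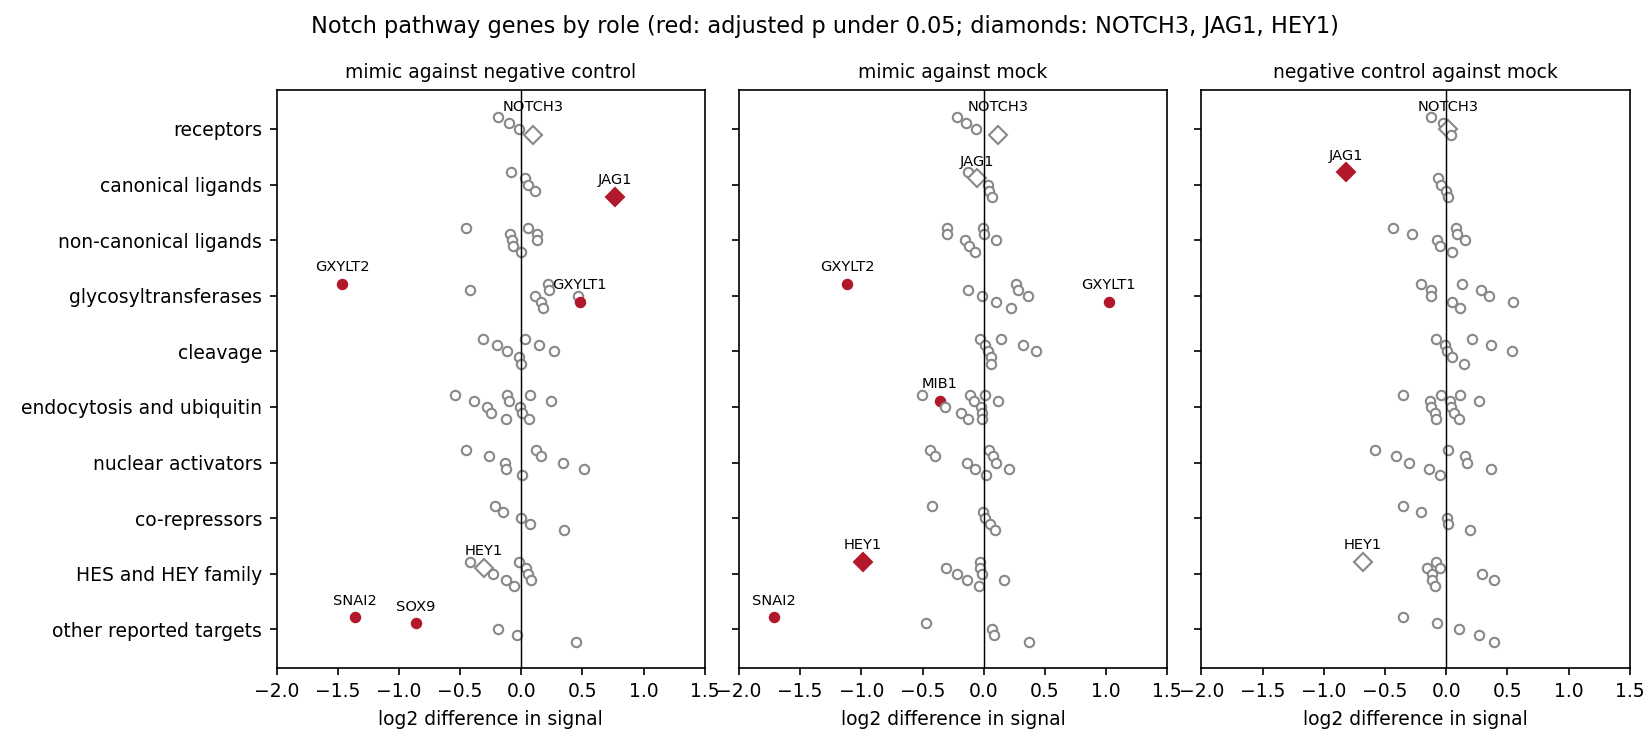
Log2 difference in signal of each of the 74 measured pathway genes, grouped by role down the page, in the 3 comparisons. Red points passed an adjusted p under 0.05 and diamonds mark NOTCH3, JAG1 and HEY1, with JAG1 apart from the other canonical ligands against the negative control (0.77) and GXYLT2 and GXYLT1 at opposite ends of their row against mock (-1.12 and 1.02).

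Of the 8 measured genes of receptor cleavage, 0 passed by limma in any comparison, and 1, 2 and 2 had an unadjusted p under 0.05. PSENEN, a gamma-secretase subunit, differed by 0.42 ± 0.16 in the mimic against mock (adjusted p = 0.20) and NCSTN, another subunit, by 0.01 ± 0.15 (adjusted p = 0.99). For PSENEN the negative control differed from mock by 0.54 ± 0.16 (limma, adjusted p = 0.23). The mimic differed from the negative control by -0.12 ± 0.16 (adjusted p = 0.79). Of 12 measured genes of endocytosis and ubiquitin transfer, MIB1, a ubiquitin ligase that acts on the ligands, fell in the mimic against mock by 0.36 on the log2 scale (SE 0.083, limma, adjusted p = 0.047). MIB1 read 6.86, 6.70 and 6.68 on mimic arrays, 6.84, 6.71 and 6.71 on negative control arrays, and 7.17, 7.05 and 7.09 on mock arrays. Both small RNA groups thus lay below mock. Such separation was found for 20.2% of all genes in mimic against mock and 12% in negative control against mock. The MIB1 call was missed whichever single array was left out, with limma adjusted p up to 0.15, and in 5 of 8 other settings. For MIB1 the negative control differed from mock by -0.35 ± 0.083 (adjusted p = 0.12). In this list 3, 2 and 1 genes had an unadjusted p under 0.05, in the order used above. DTX3L, added here after its values were seen, passed in no comparison. It differed by -0.54 ± 0.14 in the mimic against the negative control (limma, adjusted p = 0.069) and -0.51 ± 0.14 against mock (adjusted p = 0.073). Its mimic arrays lay below all others, a separation found for 18.6% and 20.2% of all genes.

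Of the 9 nuclear activators, 0 passed in any comparison by limma, with 2, 1 and 2 at an unadjusted p under 0.05. CREBBP and EP300, histone acetyltransferases that work with the Notch intracellular domain, differed by 0.16 ± 0.26 (adjusted p = 0.83) and 0.01 ± 0.22 (adjusted p = 0.99) in the mimic against the negative control. RBPJ and MAML2, added here after their values were seen, came nearer, though neither passed in any comparison. RBPJ, the DNA-binding protein of the complex, read 5.09, 5.02 and 5.02 on mimic arrays, 4.37, 4.43 and 4.79 on negative control arrays, and 5.03, 5.04 and 5.27 on mock arrays. The negative control arrays thus lay below all others, as for JAG1. Such separation was found for 18.6% of all genes between mimic and negative control and 12% between negative control and mock. The RBPJ difference was 0.52 ± 0.12 in the mimic against the negative control (limma, adjusted p = 0.054) and -0.58 ± 0.12 between negative control and mock (adjusted p = 0.075). MAML2, a Mastermind co-activator, differed by -0.46 ± 0.12 in the mimic against the negative control (adjusted p = 0.074), and its other, dimmer feature by -0.23. Against mock the mimic difference of MAML2 was -0.44 ± 0.12 (limma, adjusted p = 0.072), and that of its other feature was -0.20. For MAML2 the negative control differed from mock by 0.02 ± 0.12 (adjusted p = 0.98). Of the 5 measured of 13 co-repressors, 0 passed by limma, with 1 at an unadjusted p under 0.05 in each comparison. TLE5, a shortened Groucho-family protein, differed by -0.42 ± 0.14 in the mimic against mock (adjusted p = 0.13).

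Of 9 measured members of the HES and HEY family, HEY1 in the mimic against mock was the single gene that passed, and 1, 3 and 3 had an unadjusted p under 0.05. HES4 differed by -0.01 ± 0.19 (adjusted p = 0.98) and HES6, which acts against HES1, by -0.22 ± 0.09 (adjusted p = 0.24) in that comparison. HES1 itself was not analysed here.

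Among 5 measured genes of other reported Notch targets, SNAI2 and SOX9, transcription factors of mesenchymal and progenitor cells, fell in the mimic against the negative control, and SNAI2 alone passed against mock. SNAI2 fell by 1.36 on the log2 scale (SE 0.14, limma, adjusted p = 0.0018) against the negative control and fell by 1.71 against mock (adjusted p = 0.00057), and SOX9 fell by 0.86 (SE 0.17, adjusted p = 0.028) against the negative control. Against mock the mimic difference of SOX9 was -0.47 ± 0.17 (adjusted p = 0.18), and the negative control differed from mock by 0.39 ± 0.17 (adjusted p = 0.44). The SOX9 call was missed when any 1 of the mimic arrays, mock 1, negative control 1 or negative control 3 was left out, with adjusted p up to 0.098, and in 2 of 8 other settings. MYC and CCND1 differed by 0.45 ± 0.17 (adjusted p = 0.24) and -0.19 ± 0.10 (adjusted p = 0.43) in the mimic against the negative control.

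The genes whose signal varied most like each of the trio over the 9 arrays were sought among those at or above the median signal. For JAG1 they were ESYT2 (r = 0.97), CCDC80 (r = 0.95) and MAPKAPK5 (r = 0.94), with 0.79, 0.68 and 0.82 after the group means were taken out. CCDC80, a secreted matrix protein, averaged 7.53 ± 0.10 in mimic, 6.95 ± 0.02 in negative control and 7.48 ± 0.12 in mock (SD, n = 3 each), a low in the negative control as for JAG1. For HEY1 they were UGDH (r = 0.96), which makes UDP-glucuronate, UBE2H (r = 0.96), a ubiquitin-conjugating enzyme, and VEGFA (r = 0.95), the vascular growth factor, with 0.83, 0.83 and 0.77 after the group means were taken out. UGDH averaged 6.73 ± 0.13 in mimic, 7.24 ± 0.06 in negative control and 7.92 ± 0.22 in mock (SD, n = 3 each). VEGFA averaged 4.80 ± 0.13 in mimic, 5.12 ± 0.0024 in negative control and 5.50 ± 0.22 in mock (SD, n = 3 each). The means of both had the same order of groups as HEY1. Genes picked for a high r over these same arrays tend to share such a pattern, so it is no separate result, for CCDC80 as well.

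For NOTCH3 they were WASHC1 (r = 0.95), WASH7P (r = 0.95) and MCCC2 (r = 0.94), with 0.96, 0.97 and 0.95 after the group means were taken out. WASHC1, of the complex that shapes actin on endosomes, and its pseudogene relative WASH7P are near-identical copies. Whether their features read separate RNAs was not tested. For NOTCH3 the likeness thus lay between arrays within groups, since WASHC1 averaged 6.72 ± 0.10 in mimic, 6.68 ± 0.13 in negative control and 6.65 ± 0.11 in mock (SD, n = 3 each). The r values describe 9 arrays that share a normalization, and were picked as the highest among 7089 genes, or 7090 for HEY1.

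**Figure D4:**
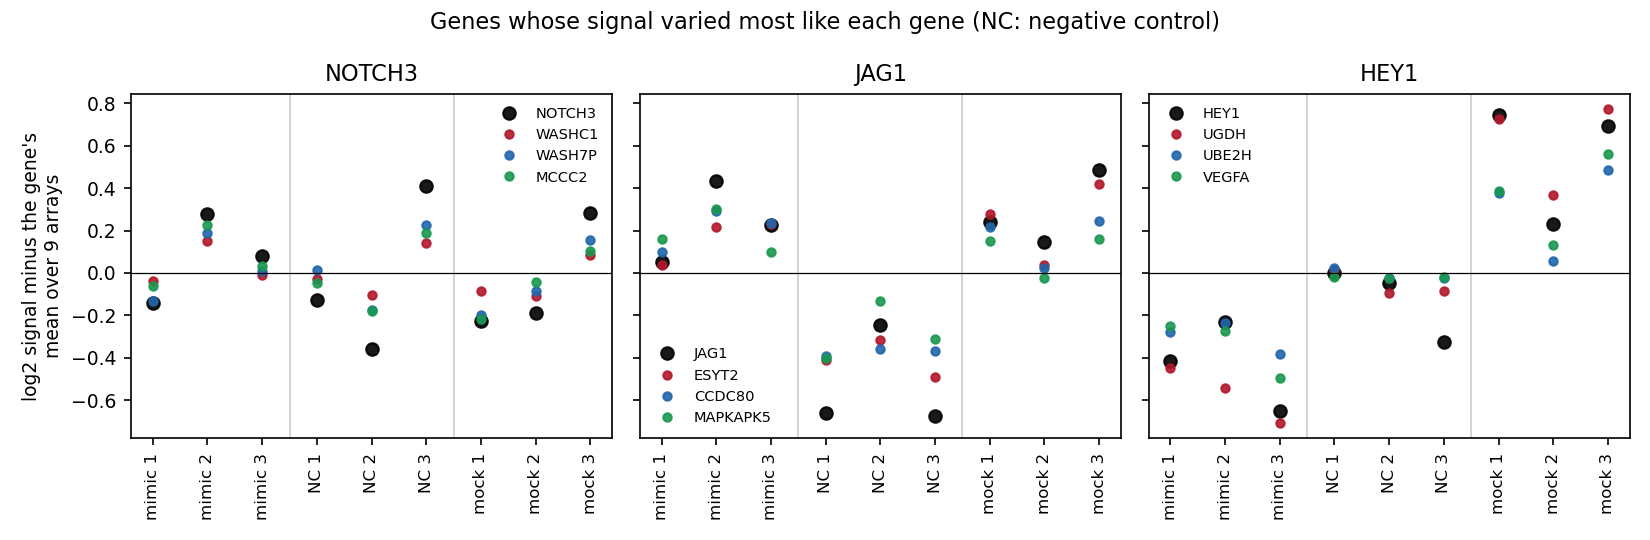
Log2 signal of each gene minus its own mean over the 9 arrays, for NOTCH3, JAG1 and HEY1 in black and the 3 genes most like each in colour, with mimic, negative control (NC) and mock arrays from left to right. The JAG1 panel has all its negative control values below 0, the HEY1 panel has mock at the top and mimic at the bottom, and the NOTCH3 panel has highs and lows within every group.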

How the data were processed

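Total RNA of 9 BT-549 samples was read on Affymetrix Human Gene 2.0 ST arrays, and the deposited values are log2 signals that the authors made with RMA, per the submitters' processing notes. RMA corrects background, aligns the arrays' distributions and sums probes. Its version and program are not stated in the labels used here. The platform's annotation gave 16098 of 53617 features 1 symbol, and all 16098 gene IDs matched RefSeq (GRCh38.p14), used for names. The brightest feature stood for the 779 genes with several, leaving 14884 genes, all kept whatever their signal. The test was limma 3.58.1, run in R 4.3.3 on all 9 arrays, 1 mean per group, two-sided, with Benjamini-Hochberg adjustment over all genes and a threshold of 0.05. The number of arrays limits the precision. The script was tested on simulated data. NOTCH3, JAG1, HEY1 and the pathway lists were chosen with earlier results of these data known. Named were the trio, list members that passed, up to 2 others a list by highest mean signal, and for each of the trio the 3 genes with the highest r, leaving out microRNA, small nucleolar and uncharacterised loci. MFAP2 and the other unpassed genes follow that rule, except RBPJ, MAML2 and DTX3L, which were added after their values were seen. Markers are named as a check of the cell line.

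Same-numbered arrays of negative control and mock deviated together from their group means, with r of 0.15, 0.23 and 0.15 across genes, all over 0.1. Differently numbered arrays of those groups had r of -0.16 to 0.022. On this evidence from the values the numbers may pair negative control with mock. Mimic arrays had r of -0.29 to -0.05 with arrays of their number, yet up to 0.24 with another, for mimic 1 and negative control 2. An r of that size thus also arose between arrays of different numbers, and the pairing remains uncertain. Alternatives were a second quantile normalization, centring, a filter at the 25th percentile of signal, averaging features of a gene, array weights, a variance trend, fits on 6 arrays, the replicate block and leaving out each array.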

Additional observations from a re-analysis of the deposited data

How the results depend on the processing

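Counts of called genes moved with the fit more than the size of the differences did. With only the 6 arrays compared, 251 genes passed in mimic against negative control, 321 in mimic against mock and 18 in negative control against mock, compared with 473, 580 and 96. With the replicate block the counts were 292, 346 and 61, and with array weights 904 passed in mimic against mock. Leaving out arrays gave 199 to 431, 188 to 650 and 21 to 112 in the same order. Quantile-normalized once more, 219 rose and 279 fell in mimic against negative control (262 and 211 as deposited) and 246 rose and 291 fell in mimic against mock (339 and 241). Centring gave 484 and 220 in mimic against mock. Pathway counts of 5, 5 and 1 ranged from 2 to 5, 2 to 5 and 0 to 1 without single arrays. They were 2 and 0 on 6 arrays and 3 and 0 with the replicate block in mimic against negative control and negative control against mock. In the last comparison the count was 0 with the variance trend and 3 after the second quantile normalization.

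The JAG1 difference in mimic against negative control was 0.77 on 6 arrays (adjusted p = 0.069) and 0.67 to 0.91 without single arrays. In negative control against mock it was -0.82 on 6 arrays (adjusted p = 0.16), with the variance trend (0.052) and with the replicate block (0.081), and -0.96 to -0.72 without single arrays. For mimic against mock JAG1 ran from -0.15 to 0.045. HEY1 ran from -1.15 to -0.88 in mimic against mock and from -0.84 to -0.58 in negative control against mock without single arrays. NOTCH3, never called, changed sign without single arrays, from -0.068 to 0.32 in mimic against negative control and from -0.20 to 0.19 in negative control against mock, where the second quantile normalization gave -0.0012. MIB1, not called in mimic against negative control, ran from -0.064 to 0.035 there without single arrays and was at 0.020 after centring. The cause of these changes was not tested. The replicate block changed no other call of the trio. No signal for background is given, which limits HEY1.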
